A study of Homo sapiens with 9 samples.

Results

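EZH2 peaks that lay in narrow regions of acetylated histone H3 lysine 27 (H3K27ac) were examined in LNCaP cells, an established human prostate cancer cell line. They were chosen from the control EZH2 list as the peaks on chromosomes 1 to 22 and X that shared at least 1 bp with control H3K27ac regions all under 2000 bp wide and with no control region of trimethylated lysine 27 (H3K27me3). This gave 5168 of 23060 peaks, or 22.4% (95% exact binomial interval 21.87 to 22.95). Of the other control EZH2 peaks, 2134 lay in H3K27ac regions of 2000 bp or more without H3K27me3, 9461 on H3K27me3 alone, 5406 on neither mark and 461 on both, and 430 were on other sequences. The choice used the positions of the control peaks and regions, so the counts, widths and marks that define these classes are a description.

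ChIP-seq, which sequences the DNA recovered with an antibody, was done against EZH2, H3K27ac and H3K27me3. The compared cells were LNCaP cells infected with a lentivirus carrying a short hairpin against EZH2 (shEZH2) and LNCaP cells with the plko.1 vector (control). All cells grew in RPMI with 10% FBS, and the labels describe fixation in 1% paraformaldehyde 2 to 3 days after infection. Each of the 6 groups was 1 library, and the other 3 samples were not used here. The sample titles add CST to EZH2 for the control library alone. They therefore do not show whether both EZH2 libraries used the same antibody. EZH2 libraries contained 14514395 tags in shEZH2 and 13331155 in control. H3K27ac libraries contained 22175405 in shEZH2 and 17438009 in control, and H3K27me3 libraries 26241104 in shEZH2 and 33289172 in control. With 1 library per group, no difference between shEZH2 and control can be set against a spread between cultures. No p-value is given, and every interval covers counting error over peaks or regions only. The labels give no measure of EZH2 protein or RNA after the knockdown, and no input library was used in peak calling, so EZH2 binding and non-specific recovery of open chromatin cannot be told apart.

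EZH2, a methyltransferase, is the enzyme of Polycomb repressive complex 2 and methylates lysine 27 of histone H3, which is a mark of silenced genes in its trimethylated form. The same residue can instead be acetylated, and H3K27ac marks active promoters and enhancers. As one lysine cannot carry both groups, an EZH2 peak on H3K27ac lies where some of these lysines do not carry the product of EZH2. Other copies of the lysine at the same site may carry it. The series title names the question behind the experiment, whether EZH2 also acts as an activator without Polycomb and without methylation.

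Narrow regions made up most of the H3K27ac list, and few of them held EZH2. On chromosomes 1 to 22 and X, 51706 H3K27ac regions (90.8%) were under 2000 bp wide. The 5168 peaks lay in 4818 of the 50901 narrow regions that either held such a peak or had neither EZH2 nor H3K27me3, a share of 9.47%. Of the 5235 wide regions, 1781 (34.0%) held an EZH2 peak outside H3K27me3. Most of the narrow regions with EZH2, 4477, held a single peak, 332 held 2 and 9 held 3. The 350 pairs of neighbouring peaks within one region had their centres a median of 543.5 bp apart.

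The narrow regions that held EZH2 tended to be the broader and more heavily acetylated ones. Their median width was 1149 bp (interquartile range 702 to 1547), against 325 bp for narrow regions without EZH2. Their median H3K27ac signal was 124.4 normalised tags (range 4.01 to 850.4), against 13.8 without EZH2, where a normalised tag is a tag scaled to 10000000 tags per library. When the 50901 regions were ranked by tags, 0.904% (0.662 to 1.20) of the lowest decile held EZH2, 2.55% of the fifth, 9.55% of the eighth, 19.6% of the ninth and 47.1% (45.7 to 48.5) of the highest. The highest decile alone held 2397 of the 4818 regions. By width, the share was 1.73% under 250 bp, 4.101% at 250 to 499 bp, 11.2% at 500 to 999 bp, 24.6% at 1000 to 1499 bp and 33.9% (32.4 to 35.4) at 1500 to 1999 bp. A wider region offers more sequence for an overlap of 1 bp and sums tags over more sequence. The part of region size in these shares was not tested.

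**Figure D1:**
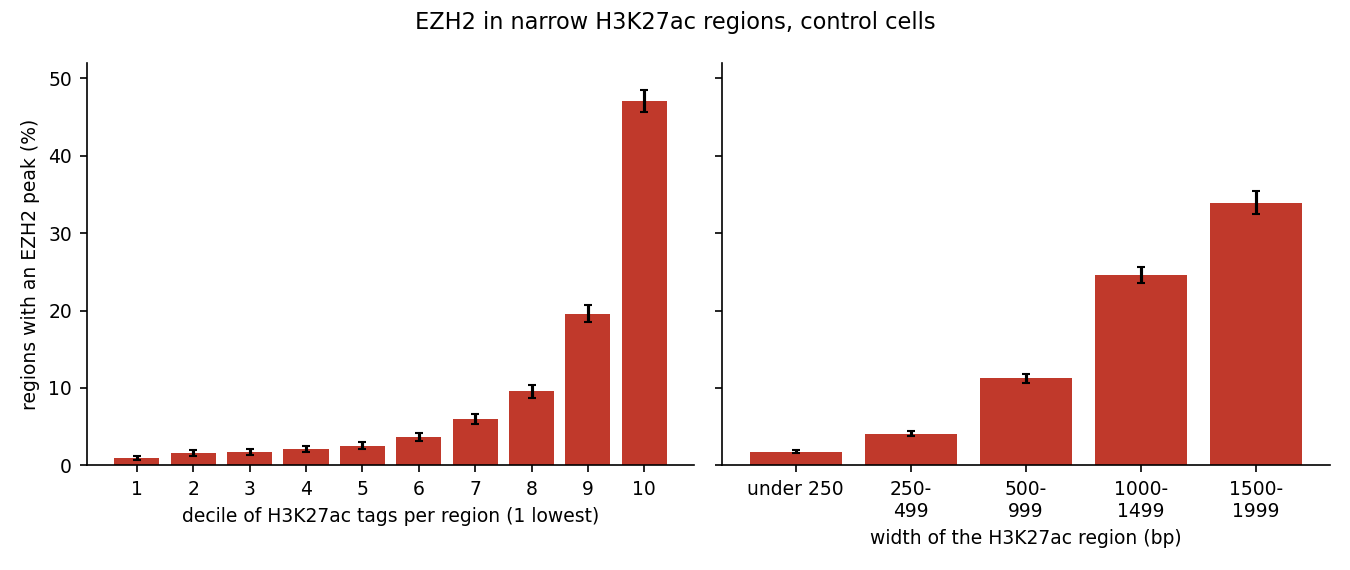
Share of narrow control H3K27ac regions that held an EZH2 peak (percent, vertical axis), by decile of H3K27ac tags (left) and by region width in bp (right), in control cells. Bars are shares and lines are 95% exact binomial intervals over regions; the share was 0.904% in the lowest decile and 47.1% in the highest.

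Acetylation was also denser at equal width where EZH2 was present. Under 250 bp, where the median region without EZH2 was a single window of 151 bp, the median was 41.8 normalised tags per kb with EZH2 and 37.9 without, a ratio of 1.10. At 250 to 499 bp it was 56.7 with EZH2 and 43.0 without, a ratio of 1.32. At 500 to 999 bp it was 87.3 with EZH2 and 48.7 without, and at 1000 to 1499 bp 120 with EZH2 and 63.4 without. At 1500 to 1999 bp it was 138 with EZH2 (134 to 142) and 78.2 without (76.0 to 80.1), a ratio of 1.77.

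Among the called peaks of the class, EZH2 tags did not follow the acetylation of the region. Across the 5168 peaks, which share 1 EZH2 library and 1 H3K27ac library, the Spearman correlation of EZH2 tags with H3K27ac tags was -0.012, and with region width -0.018. The median EZH2 signal was 9.75 normalised tags in regions under 500 bp (782 peaks), at 500 to 999 bp (1228 peaks), at 1000 to 1499 bp (1650 peaks) and at 1500 to 1999 bp (1508 peaks). The fold over local background, which compares a peak with the surrounding 10 kb, had a correlation of 0.128 with H3K27ac tags. Only called peaks entered, and their EZH2 tags spanned a narrow range (interquartile range 8.25 to 12). These correlations therefore do not describe regions without a call.

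The region of highest acetylation that held EZH2, on chromosome 10 from 32634830 to 32636722 (hg19, as are all positions here), had 850.4 H3K27ac tags and 2 EZH2 peaks, of 9.75 tags from 32635157 to 32635339 and of 14.3 tags from 32636191 to 32636373. On chromosome 16, the region from 30709200 to 30711061 held 708.8 H3K27ac tags and 2 EZH2 peaks, of 11.3 tags from 30709536 and of 10.5 tags from 30710143. Of these 4 peaks, the first was at the median of the class, and all were under 15 tags. No hg19 gene annotation or sequence was used here, so peaks are named by position and no gene or promoter is assigned.

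EZH2 peaks in narrow regions had the same median signal as those in wide regions, and a lower one than those on H3K27me3. The median was 9.75 normalised tags (interquartile range 8.25 to 12, range 5.25 to 231) in narrow regions, 9.75 in wide regions, 12.8 on H3K27me3 alone and 8.25 on neither mark. At least 15 tags were reached by 579 peaks in narrow regions (11.2%, 10.4 to 12.1), beside 24.0% of all control EZH2 peaks, 11.5% in wide regions, 40.4% on H3K27me3 alone and 5.77% on neither mark. Only 35 of the 5168 held 25 tags or more. Many lay close to the calling limit: 1095 (21.2%) had the lowest deposited score of 9, where the score is the caller's own unscaled peak value. The same was true of 21.7% of wide-region peaks.

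Peaks in narrow regions stood out most from their surroundings. Their median fold over local background was 10.73 (10.50 to 10.73), against 8.67 (8.47 to 8.94) in wide regions, 7.04 (6.94 to 7.12) on H3K27me3 alone and 8.20 (8.08 to 8.34) on neither mark. A fold of at least 16 was reached by 17.5% in narrow regions, 9.98% in wide regions, 6.78% on H3K27me3 alone and 10.3% on neither mark. Other EZH2 peaks nearby raise the local background. Another peak lay within 10 kb of 31.7% of narrow-region peaks, beside 47.1% of all control EZH2 peaks, 44.0% in wide regions, 60.8% on H3K27me3 alone and 34.3% on neither mark. The part of this spacing in the difference in fold was not tested.

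**Figure D2:**
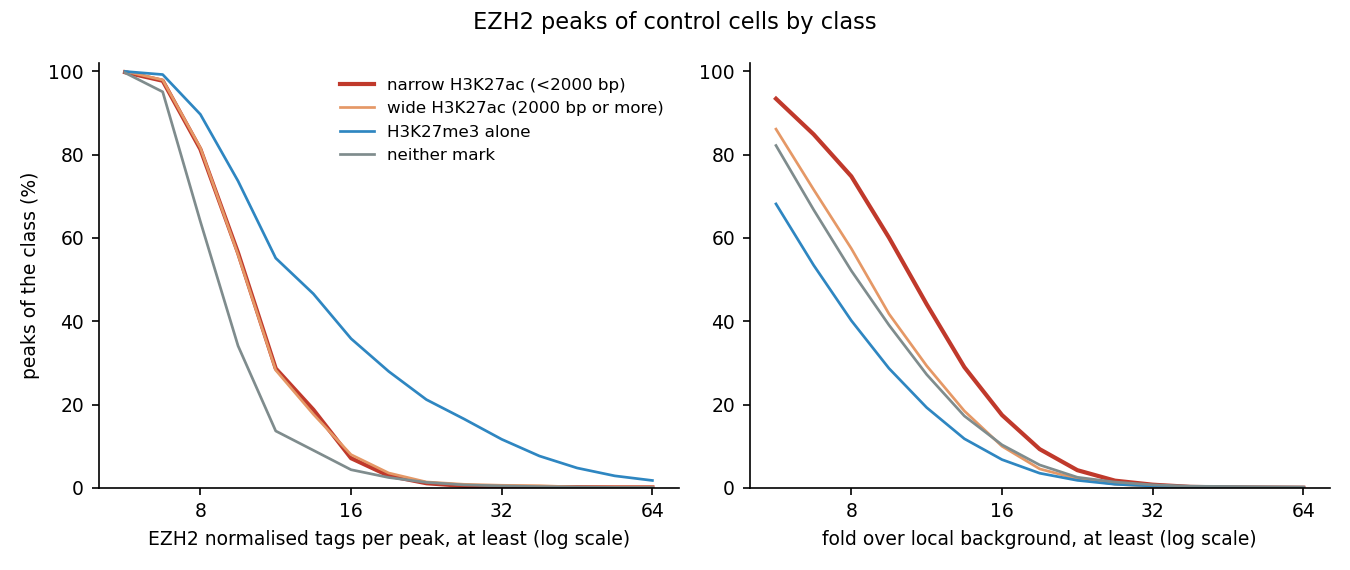
Share of each class of control EZH2 peaks (percent, vertical axis) that reached at least the value on the horizontal log axis, in normalised tags per peak (left) and in fold over local background (right). The lines for narrow and wide H3K27ac regions lie together for tags, while for fold at least 16 the narrow class is at 17.5% and the wide class at 9.98%.

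A few peaks of the class held far more tags than the rest. Those named here leave out chromosome 8 and the sequence around each chromosome's longest gap in the lists. The most tags were on chromosome 22 from 18879930 to 18880112, with 443.7 in shEZH2 and 231 in control, and on chromosome 16 from 14580833 to 14581015, with 157.1 in shEZH2 and 219.8 in control. At these peaks 0.978 and 0.990 of the control tags lay on the expected side of the peak, and the clonal fold, which compares tags per position with the number expected, was 1.59 and 1.96. The chromosome 16 peak had the highest fold over local background, 302.27. On chromosome 1, the peaks from 567469 to 567651 and from 566498 to 566680 held 281.1 and 252.2 tags in shEZH2, against 183 and 165.8 in control. They were only 4.71-fold and 4.23-fold above their surroundings, in regions with 15.5 and 5.73 H3K27ac tags. The fifth of these, on chromosome 16 from 32296730, held 29.6 tags in shEZH2 and 37.5 in control. By fold, the chromosome 16 peak was followed by one on chromosome 2 from 187350864 to 187351046, at 57-fold with 12.8 tags and not called again. In all, 149 peaks of the class (2.88%) lay in the 2 Mb on either side of the longest gap in the lists of their chromosome. No repeat annotation was used, so these positions are not known to be repeats.

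Peaks tended to sit inside the region. The centre of the EZH2 peak lay in the middle 50% of the region for 62.6% of peaks in narrow regions and 69.6% in wide regions, and outside the region, with the peak overlapping its edge, for 347 (6.71%). Central placement was most frequent in the wider regions of the class: 40.4% under 500 bp, 49.5% at 500 to 999 bp, 70.9% at 1000 to 1499 bp and 75.7% at 1500 to 1999 bp. Regions under 500 bp are closer in size to the 183 bp window of a peak.

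The 9 regions with 3 peaks had a median of 196.1 H3K27ac tags, against 120.4 for regions with 1 peak. One of them, on chromosome 1 from 1709081 to 1710969, held 642.3 H3K27ac tags and EZH2 peaks of 11.3, 9.0 and 12.8 tags, of which the last was called again in shEZH2 with 6.89 tags. On chromosome 1 from 68150957 to 68152637, with 447.3 H3K27ac tags, the peaks held 24.8, 9.75 and 8.25 EZH2 tags and none was called again. On chromosome 17 from 75954040 to 75955553, with 178.3 H3K27ac tags, the peaks held 9.75, 28.5 and 8.25 tags, and the first 2 were called again with 10.3 and 13.1 tags.

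Peaks on both sides of the limit of 2000 bp held between 6.0 and 15 EZH2 tags in the examples nearest to it. Just inside it, in regions of 1999, 1999 and 1998 bp, peaks on chromosomes 19, 6 and 1 held 10.5, 9.75 and 9.0 EZH2 tags. Just outside it, in regions of 2000, 2000 and 2001 bp, peaks on chromosomes 15, 6 and 15 held 7.5, 15 and 6.0 tags.

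Narrow regions with EZH2 lay farther from wide H3K27ac regions than narrow regions without it. A wide region lay within 10 kb of 411 of 4818 narrow regions with EZH2 (8.53%, 7.76 to 9.36) and of 8964 of 46083 without (19.5%, 19.1 to 19.8), beside 18.4% of both together. The difference was -10.9 percentage points (Newcombe interval -11.8 to -10.0). The median distance to the nearest wide region was 125606 bp (118335 to 132673) with EZH2 and 86648 bp (84394 to 88896) without. The difference was as large within bins of region width, -10.8 points (SE 0.487, Mantel-Haenszel weights), and was -9.47 points (SE 0.512) within deciles of H3K27ac tags. In each of the 5 width bins the share was lower with EZH2, for example 7.42% with EZH2 against 20.3% without under 250 bp, and 10.2% with EZH2 against 20.5% without at 1500 to 1999 bp. The same direction held in the 10 tag deciles, though in the lowest, with 46 regions holding EZH2, the interval was -15.4 to 4.29 points. Control regions were called in 150 bp windows, so a narrow region may be a piece of a longer acetylated stretch. For 3.61% of narrow regions with EZH2 and 11.98% without, the overlapping shEZH2 H3K27ac region also held a wide control region. The part of such splitting in the spacing was not tested.

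**Figure D3:**
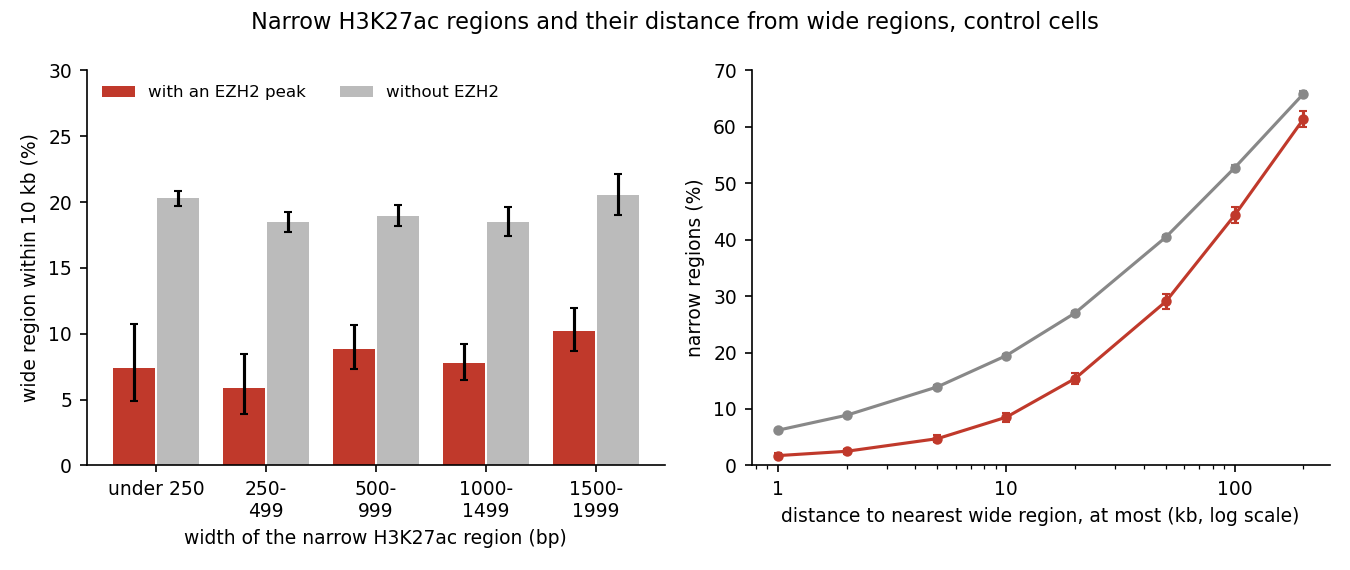
Share of narrow control H3K27ac regions (percent, vertical axes) with a wide region within 10 kb, by region width in bp (left), and with a wide region within the distance on the horizontal log axis in kb (right), for regions with an EZH2 peak (red) and without (grey). Lines on bars and points are 95% exact binomial intervals; within 10 kb the shares were 8.53% with EZH2 and 19.5% without.

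This spacing was not particular to wide neighbours. The nearest other H3K27ac region of any width was a median of 6952.5 bp away from regions with EZH2 (6360 to 7743) and 674 bp away from those without (661 to 690). Another H3K27ac region lay within 1 kb of 32.05% of regions with EZH2 and 56.5% without. Under 250 bp these shares were 35.0% with EZH2 and 55.0% without, and at 1500 to 1999 bp 25.8% with EZH2 and 44.1% without. Narrow regions with EZH2 thus had other listed acetylated sequence nearby less often at equal width. A listed EZH2 peak had to be at least 4-fold over the surrounding 10 kb. EZH2 tags recovered nearby could therefore keep a region out of the group with EZH2. The part of this filter in the spacing from wide and from other regions was not tested.

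H3K27me3 regions lay nearer to the class than to wide-region peaks. An H3K27me3 region lay within 10 kb of 715 narrow-region peaks (13.8%, 12.9 to 14.8), beside 60.1% of all control EZH2 peaks, which include those chosen for H3K27me3. The share was 4.26% for wide-region peaks and 51.2% for peaks on neither mark. It was highest in the narrowest regions, at 32.7% under 500 bp, 16.9% at 500 to 999 bp, 9.09% at 1000 to 1499 bp and 6.76% at 1500 to 1999 bp.

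Chromosomes differed in how often narrow regions held EZH2. The share was highest on chromosome 19 (13.9%, 12.4 to 15.4), chromosome 7 (12.1%) and chromosome 16 (11.7%). It was lowest on chromosome X, where 27 of 1300 narrow regions (2.08%, 1.37 to 3.01) held EZH2, followed by chromosome 13 (6.44%, 5.10 to 8.00). Among regions of the highest tag decile, 47.1% held EZH2 over all chromosomes. In that decile the share was 11 of 82 on X (13.4%, 6.89 to 22.7) and 163 of 361 on chromosome 19 (45.2%, 39.9 to 50.4). It was 43.4% (37.1 to 49.8) on chromosome 16 and 59.1% (53.0 to 64.9) on chromosome 7. Chromosomes 19 and 16 were thus not above the share over all chromosomes in that decile. Narrow regions had a median of 18.4 H3K27ac tags on X, 16.1 on chromosome 7, 17.8 on chromosome 16 and 26.4 on chromosome 19. Why the share differed between chromosomes was not tested.

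Fewer than 1 in 5 peaks of the class were called again in shEZH2, close to the share in wide regions. The shEZH2 list overlapped 940 of the 5168 (18.2%, 17.1 to 19.3), beside 23.1% of all control EZH2 peaks, 18.9% in wide regions, 30.9% on H3K27me3 alone and 9.36% on neither mark. Narrow minus wide was -0.696 percentage points (-2.70 to 1.24), and at equal score -0.656 (SE 0.939), so neither a slightly lower nor a slightly higher share in narrow regions lies outside the interval. Against H3K27me3 alone the difference was -12.7 points, but at equal score it was 5.05 points (SE 0.648). Against neither mark it was 8.83 points, and 3.83 (SE 0.644) at equal score. Allowing 1 kb between peaks gave shares of 26.5% in narrow and 29.4% in wide regions, a difference of -2.93 points (-5.23 to -0.677).

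The share called again was higher at stronger peaks. Of narrow-region peaks with fewer than 10 control tags, 10.9% were called again, of those with 10 to 15 tags 21.6%, with 15 to 25 tags 40.4%, and of the 35 with 25 or more, 27 (77.1%, 59.9 to 89.6). By score, the share was 7.58% at 9 and 80.0% above 25. It varied little with region width, at 19.7% under 500 bp, 15.6% at 500 to 999 bp, 18.9% at 1000 to 1499 bp and 18.7% at 1500 to 1999 bp.

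**Figure D4:**
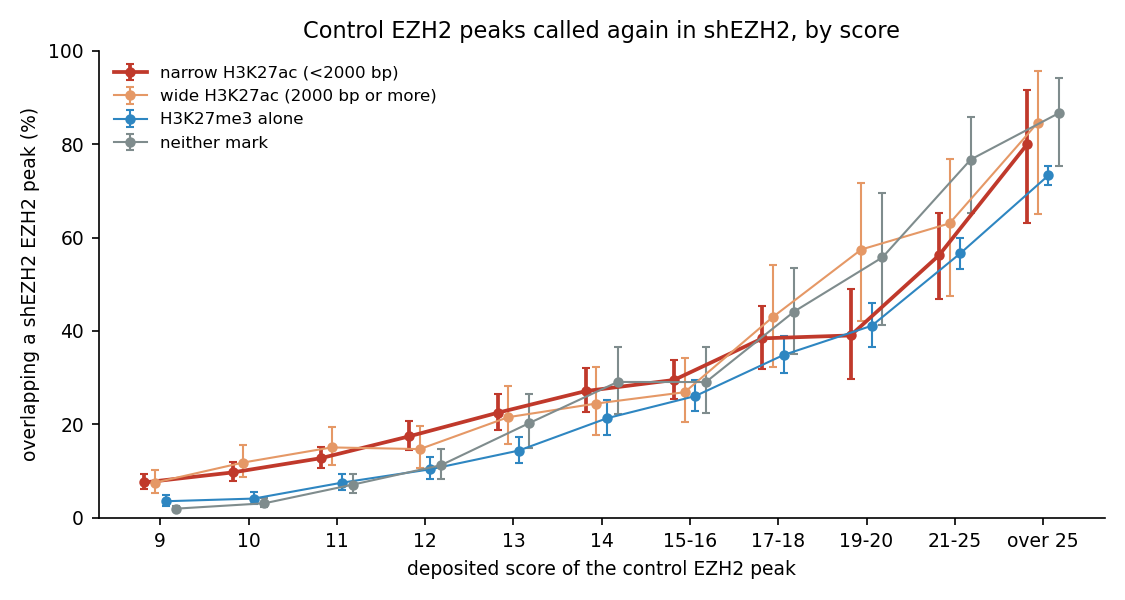
Share of control EZH2 peaks that overlapped a shEZH2 EZH2 peak (percent, vertical axis), by deposited score of the control peak, for 4 classes. Points are shares and lines 95% exact binomial intervals over peaks; the intervals of narrow and wide H3K27ac regions overlap at each score, with 7.58% in narrow and 7.54% in wide regions at score 9, and 80.0% in narrow and 84.6% in wide regions above 25.

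The strongest peaks that were not called again lay at different kinds of region. On chromosome 5 from 175843439 to 175843621, a peak of 31.5 control EZH2 tags, 20.12-fold above background, lay in a region of 188.7 H3K27ac tags and 50514 bp from H3K27me3. On chromosome 16 from 18812833 to 18813015, a peak of 25.5 tags was 32-fold above background. On chromosome 2 from 121102987, chromosome 19 from 19006625 and chromosome 10 from 112257963, peaks of 31.5, 27.8 and 26.3 tags lay in regions of 12.6, 21.8 and 15.5 H3K27ac tags. These last 3 were 722, 363 and 81 bp from a control H3K27me3 region, and each lay in a shEZH2 H3K27me3 region. None of the 5 positions overlapped a shEZH2 EZH2 peak, although a site not listed may still hold EZH2 tags below what a call required.

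Called-again shares also differed between chromosomes. On chromosome 1, 166 of 650 peaks (25.5%, 22.2 to 29.1) were called again, and on chromosome 7, 24.2% (19.6 to 29.3). On chromosome 2 the share was 11.5% (8.12 to 15.7), and on X 0 of 27 (exact upper limit 12.8%). Against the other chromosomes at equal score these were differences of 5.83 points (SE 1.70) on chromosome 1, 5.58 (SE 2.21) on chromosome 7 and -5.11 (SE 1.81) on chromosome 2. These chromosomes were picked from 23 after their values were seen. Over all control EZH2 peaks, the shares were 23.1% on chromosome 1, 25.5% on chromosome 7, 23.5% on chromosome 2 and 20.1% of 224 on X. For wide-region peaks they were 26.9% of 305 on chromosome 1, 23.9% of 113 on chromosome 7 and 12.6% of 95 on chromosome 2. On X, 2 of 3 wide-region peaks were called again. The shares on chromosomes 1, 7 and 2 were thus not particular to narrow regions. The median score of the class was 10 on X, 12 on chromosomes 1 and 7 and 11 on chromosome 2.

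Counted in each list by itself, EZH2 peaks in the same narrow regions were fewer in shEZH2. By the histone regions of control cells, the shEZH2 list placed 1551 peaks in this class and the control list 5168, a ratio of 0.3001 (exact interval 0.283 to 0.318). Over all listed EZH2 peaks it was 0.412, for wide regions 0.314 (0.287 to 0.343), on H3K27me3 alone 0.5404 (0.522 to 0.559) and on neither mark 0.252 (0.237 to 0.268). With at least 15 normalised tags the numbers were 54 in shEZH2 and 579 in control, a ratio of 0.0933 (0.0692 to 0.123), and for wide regions 20 in shEZH2 and 245 in control, a ratio of 0.0816 (0.0490 to 0.129). Over all listed EZH2 peaks this ratio was 0.367 (0.349 to 0.386), on H3K27me3 alone 0.334 (0.313 to 0.356) and on neither mark 0.503 (0.413 to 0.612). Windows were 151 bp wide in shEZH2 and 183 bp in control. With the same minimum per kb of window the narrow-region ratio was 0.240 (0.198 to 0.289). Without sequence around the longest gaps it was 0.0669, from 37 peaks in shEZH2 and 553 in control. At 25 tags or more, 16 peaks in shEZH2 and 35 in control gave 0.457 (0.236 to 0.848) in narrow regions. This minimum gave 0.474 in wide regions, 0.167 (0.147 to 0.190) on H3K27me3 alone and 0.8125 on neither mark. At 20 tags or more the ratio was 0.219 (0.136 to 0.340) in narrow regions and 0.241 (0.220 to 0.264) on H3K27me3 alone. The order of narrow regions and H3K27me3 alone thus depended on the minimum.

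Of the 1551 shEZH2 peaks, 938 (60.5%) overlapped a control EZH2 peak. Of the rest, 252 lay in a narrow region whose control peak of the class was elsewhere in the region. The other 361 lay in a narrow region with no control peak of the class. By region, 1129 of 4818 narrow regions with control EZH2 (23.4%, 22.2 to 24.7) held a shEZH2 EZH2 peak, against 353 of 46083 without (0.766%, 0.688 to 0.850). In the highest tag decile these shares were 26.7% with control EZH2 and 5.46% without.

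At the 940 peaks called in both lists, EZH2 signal differed little overall and was lower in shEZH2 at peaks of 15 to 25 control tags. The median was 8.96 normalised tags in shEZH2 and 11.65 in control, or 59.3 per kb in shEZH2 and 63.7 in control. The median log2 ratio per kb, shEZH2 over control, was -0.10 (-0.13 to -0.07), below 0 at 542 of 940. It was 0.26 (n = 307) for control peaks under 10 tags, -0.17 (n = 386) for 10 to 15 tags, -0.59 (-0.70 to -0.56, n = 220) for 15 to 25 tags and -0.35 (-0.84 to 0.11, n = 27) for 25 or more. Only peaks listed in shEZH2 entered, so a weak control peak could not show a large fall, and the ranges were set by the control tags that also enter the ratio. The direction depended on the scaling: with each library scaled to the tags in its listed EZH2 peaks, 1.74% of tags in shEZH2 and 3.62% in control, the median was 0.96.

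H3K27ac remained listed at nearly all of these sites in shEZH2. Of the 5168 peaks, 5138 (99.4%, 99.2 to 99.6) lay in a shEZH2 H3K27ac region, beside 41.8% of all control EZH2 peaks. The 30 others lay in control regions with a median width of 171.5 bp and 6.88 tags, and 16 of them had H3K27me3 within 10 kb. The 41.8% includes peaks chosen for lacking control H3K27ac, and the share was 100% for wide-region peaks. By region, it was 99.4% of narrow regions with EZH2 and 96.5% of those without. At 1000 to 1499 bp and at 1500 to 1999 bp it was 100% with and without EZH2, so the listing was not particular to regions with EZH2. The shEZH2 histone lists were called with windows of 1000 bp, against 150 bp in control, so regions were wider: 3743 of the 4818 control regions (77.7%) overlapped a shEZH2 region of 2000 bp or more, and the median shEZH2 region over them was 2707.5 bp wide. With the upper 50% of the shEZH2 list by score, 73.9% of peaks lay in an H3K27ac region. An overlap does not show that the level of the mark was the same.

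At regions that paired one to one between the lists, the ratio of H3K27ac tags, shEZH2 over control, was lower where control tags were higher. Control tags are the denominator of this ratio and also set the deciles, so part of that trend was fixed in advance. The calling threshold of the shEZH2 list corresponded to 9.47 normalised tags, in windows of 1000 bp. A weak control region that paired could therefore hardly show a low ratio. Over all pairs the median log2 ratio, shEZH2 over control, was 0.30 at 3112 regions with EZH2 and 0.93 at 16394 without, which had median control tags of 129.6 with EZH2 and 16.1 without. One-to-one pairs were 66.8% of regions with EZH2 and 54.9% of those without in the highest tag decile. In that decile the median log2 ratio of tags, shEZH2 over control, was 0.19 (0.18 to 0.20) at 1602 regions with EZH2 and 0.14 (0.13 to 0.15) at 1479 without. In the ninth decile it was 0.32 (0.30 to 0.35) at 654 regions with EZH2 and 0.24 (0.22 to 0.27) at 1796 without. In the 8 lower deciles the intervals with and without EZH2 overlapped, and in deciles 2 to 5 the median with EZH2 was the lower value, for example 1.62 with EZH2 (1.46 to 1.89) and 1.87 without (1.82 to 1.91) in decile 2. By width, it was 0.38 with EZH2 (0.35 to 0.42) and 0.51 without (0.49 to 0.54) at 500 to 999 bp, and 0.20 with EZH2 (0.18 to 0.21) and 0.16 without (0.14 to 0.17) at 1500 to 1999 bp. Within the highest decile it was 0.21 (0.18 to 0.24) at 431 regions with EZH2 that held any shEZH2 EZH2 peak and 0.19 (0.18 to 0.20) at 1171 that held none, and the intervals overlapped. In that decile the ratios per kb were -0.73 with EZH2 and -0.83 without, as the shEZH2 regions were wider. Because tags were summed over wider regions in shEZH2, the sign of neither ratio shows a gain or a loss. The most acetylated region, on chromosome 10 from 32634830, had 763.0 tags in shEZH2, within 4089 bp, and 850.4 in control, within 1893 bp.

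A small group of these peaks lay in H3K27me3 regions of the shEZH2 list. There were 207 (4.01%, 3.49 to 4.58), beside 56.3% of all control EZH2 peaks. The share was 0.469% in wide regions, 48.6% on neither mark and 99.1% on H3K27me3 alone. By region, 223 of 4818 narrow regions with EZH2 (4.63%, 4.05 to 5.26) touched a shEZH2 H3K27me3 region, against 285 of 46083 without (0.618%, 0.549 to 0.694), beside 0.998% of both together. Without the 31 regions with EZH2 that touched control H3K27me3 beside the peak, the share was 198 of 4787 (4.14%). With those 31 regions kept, of which 25 touched shEZH2 H3K27me3, the difference within deciles of H3K27ac tags was 5.72 points (SE 0.373). No region without EZH2 touched control H3K27me3, by the choice of that group. The 31 regions were also kept in the shares by width. The share was highest in the narrowest regions, at 21.96% with EZH2 and 0.903% without under 250 bp, and at 0.897% with EZH2 and 0.153% without for 1500 to 1999 bp.

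**Figure D5:**
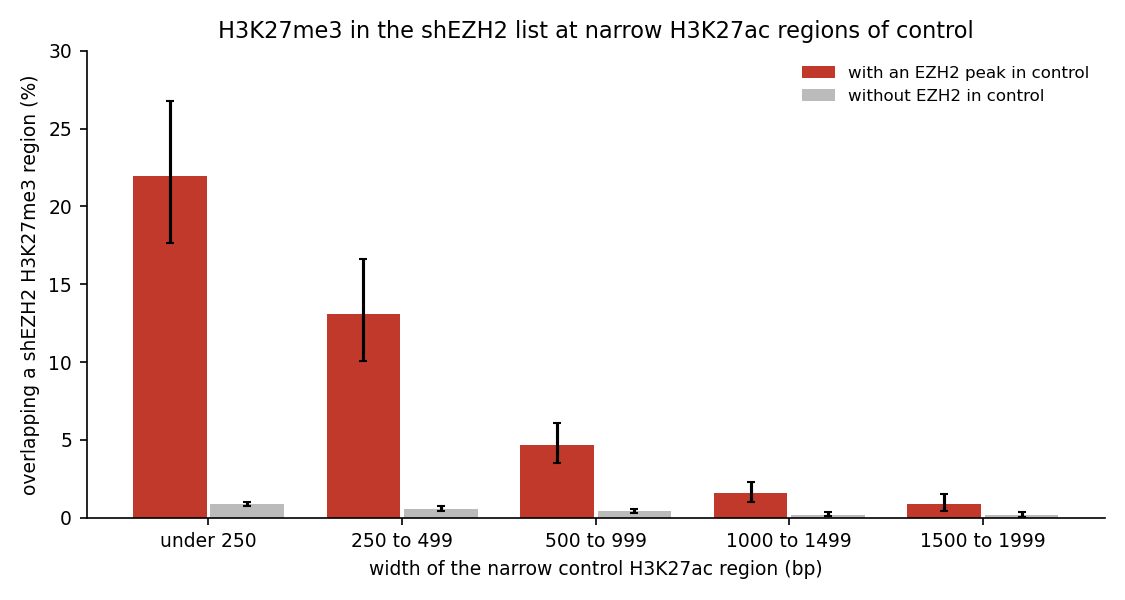
Share of narrow control H3K27ac regions (percent, vertical axis) that overlapped a shEZH2 H3K27me3 region, by region width in bp, for regions with an EZH2 peak in control (red) and without (grey). Bars are shares and lines 95% exact binomial intervals over regions; under 250 bp the shares were 21.96% with EZH2 and 0.903% without. Regions with EZH2 include the 31 that touched control H3K27me3 beside the peak, and regions without EZH2 include none that touched it.

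Most of this group lay beside H3K27me3 that was already listed in control. A control H3K27me3 region lay within 1 kb of 117 of the 207 (56.5%), against 1.85% of the other 4961 peaks. The density needed for a call was lower and the windows wider in the shEZH2 list, so an H3K27me3 region there need not be a gain. At equal distance from control H3K27me3, the shares with and without EZH2 were close within 1 kb and apart beyond it. Among those apart from it but within 1 kb, 56.6% with EZH2 (49.2 to 63.8, n = 189) and 50.9% without (45.4 to 56.4, n = 330) touched shEZH2 H3K27me3. At 1 to 10 kb the shares were 7.04% (4.89 to 9.74) with EZH2 and 2.31% (1.78 to 2.95) without, and beyond 10 kb 1.405% (1.07 to 1.81) with EZH2 and 0.128% (0.0962 to 0.166) without. Beyond 10 kb the regions with EZH2 were also wider, with a median of 1203 bp against 327 bp without.

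The 207 peaks differed from the other 4961 in their H3K27ac regions and in EZH2 tags. Their control H3K27ac regions had a median of 373 bp and 18.4 tags, against 1201 bp and 134.2 tags for the others. At least 15 EZH2 tags were found at 37.7% of them and 10.1% of the others, and 28.5% of them and 17.8% of the others were called again. Their shEZH2 H3K27me3 regions had a median of 1660 bp and 13.1 tags per kb, against 21.1 per kb at peaks on H3K27me3 alone and 13.5 at peaks on neither mark. The most H3K27me3 tags in shEZH2 were at the peak on chromosome 7 from 155137623 to 155137805, 1216.8 tags over 40537 bp. Its own control H3K27ac region was 151 bp wide with 5.73 tags, had no shEZH2 H3K27ac region and lay beside control H3K27me3, 185 bp from the peak. The next, on chromosome 1 from 38218627, lay in a shEZH2 H3K27me3 region of 428.3 tags over 16779 bp and 497 bp from control H3K27me3. In the widest regions of the class, 1500 to 1999 bp, 9 of 1508 peaks (0.597%) lay in shEZH2 H3K27me3.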

How the data were processed

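The tools were BWA 0.6.1 for alignment (hg19) and HOMER 4.1 for peaks; these names come from the submitters' processing notes. Every library was called separately by the authors, without input, per the file headers: EZH2 in fixed windows at a false discovery rate of 0.001 and at least 4-fold over the surrounding 10 kb. Histone regions used 150 bp windows at a false discovery rate of 0.001 in control and 1000 bp windows at a Poisson p of 0.001 in shEZH2. The deposited signal is tags scaled to 10000000 per library. The deposited score is unscaled and was used to stratify peaks. The deposited fold over local background and clonal fold are ratios, the deposited fraction gives how many tags fell on the side of the peak where they should, and the deposited p-value was not used.

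Samples were grouped by their labels. Overlap was 1 bp. Shares have 95% exact (Clopper-Pearson) intervals, differences Newcombe intervals, medians order-statistic intervals and ratios of numbers exact binomial intervals. Named peaks were those with most EZH2 tags, highest fold, most tags called again and not, most peaks or H3K27ac tags in a region, nearest 2000 bp and most shEZH2 H3K27me3 tags, away from the longest gaps and from chromosome 8. Members, lists and rules were chosen with earlier results of these data known. Shares by distance from control H3K27me3, and the chromosomes named, were chosen once values had been seen. The 5 gene lists were not used, as no hg19 annotation was at hand. Python 3.11.15, numpy 2.4.6, pandas 2.3.3 and scipy 1.17.1 were used, and the overlap code was tested on simulated data.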

Additional observations from a re-analysis of the deposited data

How the results depend on the processing

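No paired analysis was possible because each group held 1 library. Of the values under the other settings, 49 lay within the counting interval of the value reported, or within 1.5 times a count, 18 lay outside and 1 reversed. The 49 include called-again differences from wide regions of -2.59 points with a limit of 3000 bp and 0.237 points at equal score in the upper 50%, as the intervals of the reported differences include 0. The number of peaks was 2306 in the upper 50% of the control list by score. The called-again difference from wide regions was -2.93 points within 1 kb, and -2.96 at equal score. The median log2 EZH2 ratio was -0.26 in the upper 50%, -0.38 without division by width and 0.96, reversed, when scaled to tags in listed peaks. The strong-peak ratio was 0.0669 away from the longest gaps, 0.169 at 10 tags, 0.457 at 25 tags and 0.240 per kb. The share in shEZH2 H3K27ac was 73.9% for the upper 50% of that list. The share in shEZH2 H3K27me3 was 3.32% with 50% of the peak covered, 5.41% and 3.25% with limits of 1500 and 3000 bp, 6.98% in the upper 50% of the control EZH2 list and 2.55% in the upper 50% of the shEZH2 list. The difference in nearness to wide regions was -14.4 and -5.06 points with limits of 1500 and 3000 bp, and -9.19 within 5 kb. Excluding H3K27me3 of both groups makes the shEZH2 H3K27me3 share 0 by construction, so it was not run. Except where the setting itself changes which peaks or tags are counted, the cause was not tested. Depth limits weak peaks: the tag thresholds in the file headers correspond to 6.89 normalised tags in shEZH2 and 6.75 in control, and the lowest listed values are 4.82 in shEZH2 and 5.25 in control, so a site not called again may still hold EZH2 tags.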
